A study of Mus musculus with 9 samples.

Results

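Very broad domains of H3K27me3 on the autosomes of mouse blood progenitors are described here. They were taken from the authors' list of merged regions, in which the called intervals of all libraries are joined, as the regions on chromosomes 1 to 19 whose deposited end lay at least 60 kb beyond the deposited start. By this rule 426 of the 15836 autosomal regions (2.69%) were very broad, of 18556 regions in all, and 53 regions of that width on chromosome X were left out. Width, and with it much of the cover and continuity described below, is what the rule selected on, so the level of these values is given as a description with no test. Differences in cover between groups were fitted over all regions with an interval in at least 4 libraries. Since regions are merged over all libraries, one could reach the limit through the libraries with the most cover. Counts and p-values for cover in this set are therefore not independent of the rule. The cells were uncultured bone marrow cells of female C57BL/6 mice that had received a transplant. They had been enriched with magnetic beads for cells without lineage markers and with c-Kit, a fraction of stem and progenitor cells (HSPCs). WT cells were Dnmt3a+/+ and RH cells were Dnmt3afl-R878H/+, with the R878H change in the DNA methyltransferase gene on 1 allele, and both lines also carried the Mx1-cre transgene, whose interferon-responsive promoter drives Cre in blood and in some other tissues. Mice received vehicle (VEH) or metformin (MET), a biguanide given for diabetes, for 1 month. The 4 groups, WT VEH, WT MET, RH VEH and RH MET, had 2 libraries each. The sources used here do not say whether the libraries of a group came from separate mice, or how Cre was induced.

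H3K27me3 is the trimethyl mark that Polycomb repressive complex 2 (PRC2) puts on lysine 27 of histone H3. In mammals the complex is recruited mainly to CpG-rich promoters of silent genes, and it can spread along the chromatin because one of its subunits binds the mark it has made. Genes of development that a tissue does not use, the Hox clusters among them, are the best known carriers of wide H3K27me3 domains. DNMT3A methylates DNA de novo, often at the edges of such domains.

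MicroRNA genes that lie within the Hox clusters were in the same domains as the Hox genes around them, as their position implies. Of 919 autosomal microRNA hairpins in the RefSeq table (GRCm38.p6, the assembly behind mm10), 40 (4.35%) lay in 29 of the very broad regions. Mir10a and Mir196a-1 lay in the Hoxb domain, Mir196a-2 in the Hoxc domain, Mir10b in the Hoxd domain and Mir196b in the Hoxa domain. Mir9-1 and Mir9-3, microRNA genes best known from the nervous system, lay in the regions of Rhbg and of Rhcg and Ticrr. The mature forms are given 5′ to 3′, with the seed (bases 2 to 8) in capitals. Both miR-10 forms share a seed, and so do both miR-196 forms.
miR-10a-5p: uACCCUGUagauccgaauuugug
miR-10b-5p: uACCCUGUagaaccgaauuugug
miR-196a-5p: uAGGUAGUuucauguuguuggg
miR-196b-5p: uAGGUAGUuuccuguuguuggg
miR-9-5p: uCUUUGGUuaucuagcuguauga

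Promoter sequences were chosen from the 10 widest regions and the most continuous region, to show how much CpG the starts of genes in such domains held. Each is the 250 bases before a RefSeq transcript start (GRCm38.p6), 5′ to 3′ on the strand of the gene, with every CG in capitals. For a gene with several starts in such a region, the start richest in CG was taken. The Lhx1 window (chr11:84525535-84525784, minus strand) holds 26 CG, that of Pax2 (chr19:44756656-44756905, plus) 25, that of Hmx1 (chr5:35388611-35388860, plus) 29, that of Hoxb4 (chr11:96318017-96318266, plus) 14, that of Neurod2 (chr11:98329646-98329895, minus) 11 and that of Eml1 (chr12:108370903-108371152, plus) 4. Intervals covered each window completely in all 8 libraries, except for Hoxb4, whose window was covered in 7 libraries and had no interval in WT MET 2.
Lhx1: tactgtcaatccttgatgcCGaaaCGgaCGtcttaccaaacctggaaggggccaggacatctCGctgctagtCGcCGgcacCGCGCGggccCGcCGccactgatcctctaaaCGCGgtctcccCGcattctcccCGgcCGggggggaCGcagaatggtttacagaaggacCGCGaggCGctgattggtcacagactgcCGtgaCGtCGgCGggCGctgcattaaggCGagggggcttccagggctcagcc
Pax2: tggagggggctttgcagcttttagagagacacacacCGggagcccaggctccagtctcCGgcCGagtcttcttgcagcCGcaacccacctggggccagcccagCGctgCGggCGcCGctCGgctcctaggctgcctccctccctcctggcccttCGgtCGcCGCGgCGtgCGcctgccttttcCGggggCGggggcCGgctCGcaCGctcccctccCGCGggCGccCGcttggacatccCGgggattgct
Hmx1: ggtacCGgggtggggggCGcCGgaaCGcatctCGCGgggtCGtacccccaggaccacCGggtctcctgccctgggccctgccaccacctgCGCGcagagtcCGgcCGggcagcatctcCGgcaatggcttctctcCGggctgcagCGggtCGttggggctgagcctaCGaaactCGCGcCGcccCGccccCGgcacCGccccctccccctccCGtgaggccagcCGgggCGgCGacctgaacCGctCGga
Hoxb4: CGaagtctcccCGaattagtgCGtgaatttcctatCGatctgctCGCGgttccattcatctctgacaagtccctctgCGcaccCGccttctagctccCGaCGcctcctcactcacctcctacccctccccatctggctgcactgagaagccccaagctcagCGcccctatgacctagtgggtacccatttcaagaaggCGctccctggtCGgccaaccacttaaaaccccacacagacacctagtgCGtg
Neurod2: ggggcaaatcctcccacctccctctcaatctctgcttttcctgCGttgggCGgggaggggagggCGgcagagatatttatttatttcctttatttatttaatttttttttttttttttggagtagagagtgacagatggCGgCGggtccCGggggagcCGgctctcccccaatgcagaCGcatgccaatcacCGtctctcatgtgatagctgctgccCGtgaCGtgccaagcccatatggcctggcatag
Eml1: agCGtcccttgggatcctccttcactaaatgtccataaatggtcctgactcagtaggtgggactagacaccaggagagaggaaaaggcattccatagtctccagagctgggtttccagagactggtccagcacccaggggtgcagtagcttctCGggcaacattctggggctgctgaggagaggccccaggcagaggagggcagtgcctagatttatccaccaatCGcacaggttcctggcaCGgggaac

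The motif CG, which reads the same on both strands, was counted over all RefSeq windows of that kind. At least 20 CG stood in 28.1% of the 619 windows inside very broad regions and in 24.6% of all 20085 windows, with medians of 13 and 10 CG. Over 300-base windows (250 before to 50 after the start), 1 window a gene was kept, the one with the most CG. The median was 18 CG for the 503 genes held here, also 18 for the 4718 genes of the narrower regions, and 13 for the 11236 genes outside any region. The medians of held genes and of genes in narrower regions were thus equal, and both were higher than that of genes outside any region. A ratio of observed to expected CpG of at least 0.6 with a G and C content of at least 50% was found in 55.5%, 56.4% and 46.8% of these promoters, in the same order. The promoter table is not complete and has none for chromosome 18.

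The depth of the libraries in reads is unknown, and the labels and files give no counts. The libraries held 11620 to 16879 intervals each, covering 76.8 Mb (RH VEH 1) to 166 Mb (WT MET 2) of the autosomes. Both libraries stand apart in what follows. Interval names in the deposited lists were numbered without a gap in all 8 libraries. Each interval has a summit whose height the authors deposited as a score without a unit. Because heights may not be comparable between libraries, a height is also given as its percentile among all summits of the same library.

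The very broad regions made up 40.4 Mb, which is 18.0% of the 225 Mb in autosomal merged regions. Their median width was 81.2 kb, with quartiles at 68.7 and 104.75 kb and a range from 60.2 to 432.2 kb, against a median of 9.0 kb for all autosomal regions. A width of 100 kb was reached by 123 and of 200 kb by 13. Just inside the limit lay the regions of Ikzf3 and Zpbp2 (60.2 kb), of the connexin genes Gjb2 and Gjb6 (60.2 kb) and of the dopamine transporter gene Slc6a3 (60.4 kb). Just outside lay 4 regions of exactly 60 kb, at Atp2b2 and Sec13, at Cpeb1, at Trarg1 and Bhlha9, and at Asb8 with the olfactory receptor genes Olfr287 and Olfr288. These were covered over medians of 48.3% to 81.7% of their width, against 72.9% to 76.1% for those just inside, so nothing in the values separates the sides of the limit.

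The regions were spread unevenly over the chromosomes. Chromosome 11 held 56, or 4.58% of its merged regions, chromosome 19 held 22 (4.44%) and chromosome 15 held 26 (4.32%), whereas chromosome 10 held 3 (0.435%) and chromosome 3 held 6 (0.840%). Very broad regions also lay next to each other. The nearest other one was within 50 kb for 95 of them and within 10 kb for 49, while the median distance was 313 kb. A gene span reached into 2 or more of them in 24 cases, among them the neuronal splicing factor gene Rbfox3, the lymphoid factor gene Ikzf3, the axon guidance gene Dpysl5 and the synaptic scaffold gene Shank2. A break in the intervals of every library, rather than a gene boundary, separated the regions in these cases.

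In all, 788 of the 20665 autosomal protein-coding genes (3.81%) overlapped a very broad region, 587 over at least 50% of their span and 466 over the whole of it. Of the regions, 180 held a single gene, 22 held 5 or more, with a maximum of 11, and 30 held none. The Hox clusters were the most complete of the lists used. Of 39 Hox genes, 34 (87.2%) lay in 4 regions, so these neighbouring genes are not separate cases. Hoxb1 and Hoxb2 lay outside them, in a region of 58.0 kb that starts 5.6 kb beyond the Hoxb domain. Of 83 homeobox regulators outside these clusters, 32 were held (38.6%), among them Lhx1, Lhx2, Cdx2, Pdx1, Six2 and Nkx2-5. Forkhead, Sox, T-box and GATA regulators gave 18 of 42 (42.9%), such as Gata4 and Foxf1, and bHLH, Zic and other developmental regulators 18 of 58 (31.0%), such as Neurod2, Olig1 and Wt1. Of 9 Pax genes, Pax2, Pax5 and Pax7 were held.

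Other groups were less often in very broad regions, by their counts alone. Developmental signalling genes gave 9 of 61 (14.8%), 5 of them the Wnt ligand genes Wnt3, Wnt3a, Wnt7a, Wnt9a and Wnt9b, beside Fgf18 and Ihh. Of these 61 genes, 60 lay in a merged region of some width. Potassium channels and neurotransmitter receptors gave 4 of 51 (Adra2c, Chrna4, Grik3 and Kcna6) with 49 in some region, clustered protocadherins 0 of 20 with 14 in some region, and housekeeping genes 0 of 18 with 1. Of 25 imprinted genes, 4 were held. Cdkn1c, a maternally expressed cell cycle inhibitor gene, shared a region of 64.2 kb with part of Kcnq1 (chr7:143413601-143477800), and Ascl2 and Igf2r lay in others. Of the cell cycle inhibitor genes, Cdkn1c was the only one of 7. Cdkn2a, which encodes p16 and p19, lay in a region of 52.4 kb and the eye and brain regulator Pax6 in one of 56.8 kb, both under the limit, and Meis1, a homeobox gene of stem cells, in one of 24.8 kb. The lists were compared by counts only, and no test of enrichment was made. No share of all genes in a region of any width was taken, so the counts in some region have no background. With 3.81% of all genes held, the 0 counts of the protocadherin and housekeeping lists are near the background.

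Blood genes were looked up in the same way, against 3.81% of all autosomal protein-coding genes held. None of 26 myeloid genes lay in a very broad region, and none of the 10 progenitor markers Kit, Cd34, Spi1, Runx1, Gata2, Tal1, Lmo2, Myb, Fli1 and Cebpa did, although 8 of these 10 overlapped a narrower merged region. Of 30 stem cell and self-renewal genes, Hoxa9, Hoxb4 and Procr were held (10%), the first 2 of them as members of Hox domains. B, T and NK cell genes gave 3 of 34 (8.82%), namely Ikzf3, Pax5 and Tbx21, and erythroid and megakaryocyte genes 2 of 18 (11.1%), the anion exchanger gene Slc4a1 and the GATA cofactor gene Zfpm1. Pax5, the factor of B cell commitment, had a domain of 127 kb (chr4:44628401-44755800) covered over a median of 81.9% (58.7% to 96.5%), and Slc4a1 lay in a region of 89.4 kb with a median cover of 94.2% (72.0% to 97.8%). The mast cell protease genes Prss34 and Tpsb2, 2 of 14 mast cell, basophil and eosinophil genes (14.3%), shared a region of 109.8 kb. Markers of other cell types were looked up as well. None of 6 B and T cell and none of 3 mast cell and basophil markers lay in a very broad region, and of 4 stromal and endothelial markers Cxcl12 and Col1a1 did. The wider list of 20 stromal and endothelial genes had 3 held (15%), these and Nes. The labelled cell type cannot be checked further from a mark of silent genes. In a profile of many cells, a mark lost from some cells and a weaker mark in all of them cannot be told apart.

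The Hoxa, Hoxc and Hoxd domains had an interval of over 60 kb in all 8 libraries, 3 of the 6 regions of the set that did, and the Hoxb domain had one in 7. Their median number of intervals was 2.5 in Hoxa, 4 in Hoxb, 5.5 in Hoxc and 6 in Hoxd, against 4 over the set. The Hoxc domain was the widest region of the set (432.2 kb, chr15:102721201-103153400) and holds 9 Hoxc genes, which pattern the trunk and skin along the body axis. Intervals covered 94.0% and 98.0% of it in WT VEH, 98.5% and 97.3% in WT MET, 85.8% and 97.9% in RH VEH, and 95.6% and 96.3% in RH MET. All but the first RH VEH library thus lay within 5 percentage points of each other. The number of intervals varied far more than the cover, at 4 and 3 in WT VEH, 6 and 2 in WT MET, 15 and 5 in RH VEH, and 8 and 10 in RH MET. A single interval of 411.8 kb spanned nearly the whole domain in WT MET 2, while the longest in RH VEH 1 was 149.2 kb. In none of the 8 libraries did a break fall between the first and the last Hoxc gene, as the map of Hox domains shows; the breaks lay in the flanks. The Hoxa domain (133.2 kb, chr6:52200401-52333600) was covered over 89.6% to 97.6%, in 1 interval in WT VEH 1, WT VEH 2 and RH VEH 2. The Hoxd domain (213.8 kb, chr2:74613601-74827400) was covered over 70.3% to 97.7%, with a single interval of 116.8 to 157.4 kb in every library.

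**Figure D1:**
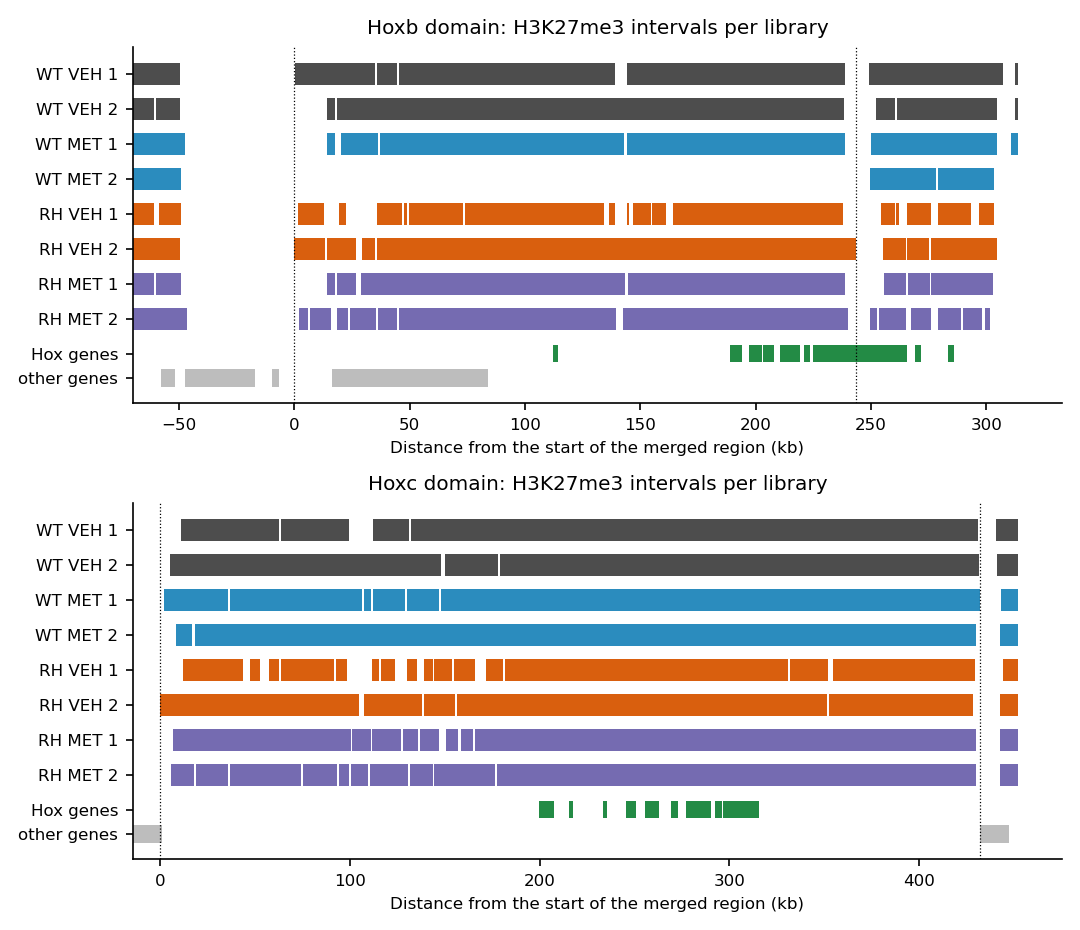
Called H3K27me3 intervals (bars) of the 8 libraries over the Hoxb domain with 70 kb to each side (top) and the Hoxc domain with 20 kb to each side (bottom); the horizontal axis is the distance in kb from the start of the merged region, dotted lines mark its ends, and genes are drawn below, Hox genes in green and others in grey. WT MET 2 has no interval in the 243.6 kb Hoxb domain and has intervals on both sides of it, and RH VEH 1 has the most intervals in both domains, 11 and 15.

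The Hoxb domain gave the largest single discrepancy of the set. It spans 243.6 kb (chr11:96082401-96326000) with Hoxb3 to Hoxb9, Hoxb13, Ttll6 and Calcoco2. Intervals covered 95.2% and 91.7% of it in WT VEH, 90.1% in WT MET 1, 82.5% and 98.3% in RH VEH, and 90.3% and 93.9% in RH MET, but WT MET 2 had no interval in it at all. In the same library the neighbouring regions were covered as elsewhere. The very broad region of Igf2bp1, 46.4 kb before it, was covered over 97.4% in WT MET 2, against 72.5% to 96.0% in the other libraries, and the region of Hoxb1 and Hoxb2 5.6 kb after it over 91.4%, against 64.5% to 100%. Highest summits in the Hoxb domain stood at 60 and 89 in WT VEH, 87 in WT MET 1, 43 and 71 in RH VEH, and 89 and 87 in RH MET, which put them at a median percentile of 97.6. No summit was listed there for WT MET 2. The domain had 2 to 11 intervals in the 7 libraries. WT MET 2 was also the lowest library, by 42.9 percentage points, in the Faim2 region (70.8 kb, chr15:99481001-99551800), which holds a gene that protects neurons from Fas-induced death. Both WT VEH libraries had covers there of 91.2% and 89.0%, WT MET 1 also had 89.0%, and WT MET 2 had 7.34%, while the cover was 50.3% and 72.3% in RH VEH, and 76.3% and 85.0% in RH MET. These were the only 2 of 426 regions in which WT MET 2 was lowest. Whether the missing intervals reflect missing mark or the calling was not tested.

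The other wide domains differed in how many intervals made them up. The region of Lhx1, a LIM homeobox gene of head and kidney formation, and Aatf (297.4 kb, chr11:84513001-84810400) was covered over 96.3% and 95.8% in WT VEH, 95.2% and 98.4% in WT MET, 72.0% and 95.8% in RH VEH, and 90.5% and 94.6% in RH MET. Pax2, a regulator of kidney, eye and ear, had a domain of 283.6 kb (chr19:44578401-44862000) that was covered over 91.3% to 98.2%, with RH VEH 1 again the lowest. Foxf1, a forkhead gene of lung and gut mesenchyme, lay in a region of 275.8 kb covered over 74.3% to 97.2%. All 3 kept a median cover above 93%. Tead1, which encodes a DNA-binding partner of the Hippo pathway, lay in the region with the highest median number of intervals in the set (256.8 kb, chr7:112654201-112911000). It was covered over 66.7% and 72.8% in WT VEH, 76.1% and 92.3% in WT MET, 49.1% and 93.6% in RH VEH, and 72.7% and 75.9% in RH MET, in 8 to 20 intervals with a median of 14.5. No single interval there exceeded 64.0 kb, so the merged width comes from shorter pieces. The region of the ear and eye homeobox gene Hmx1 and Cpz (231.0 kb, 5 to 14 intervals) and that of Eml1, Cyp46a1 and Hhipl1 (224.6 kb, 8 to 16 intervals) were also made up of several pieces in every library. The region of Shank1, Syt3 and Lrrc4b, genes of the synapse, was 231.6 kb wide. The 10th widest, 224.0 kb on chromosome 8 (chr8:121181401-121405400), held no protein-coding gene and lay 50.8 kb from the forkhead gene Foxl1.

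Continuity was the exception across the set as the intervals were called, and its counts depend on how short breaks are treated. An interval that was itself longer than 60 kb was present in at least 1 library for 164 regions, in at least 4 libraries for 52 and in all 8 for 6, and the other 262 regions reached their width only by merging shorter intervals. The 6 were the Hoxa, Hoxc and Hoxd domains and the regions of Neurod2, of Dmbx1 and Kncn, and of Rhcg and Ticrr. Neurod2, a bHLH gene of neuron differentiation, lay in the only region that was a single interval in every library (77.8 kb, chr11:98281201-98359000). It was covered over 96.4% and 95.4% in WT VEH, 94.9% and 95.6% in WT MET, 93.8% and 99.5% in RH VEH, and 96.4% and 94.9% in RH MET, a spread of under 6 percentage points that included RH VEH 1. In 4 or more libraries, 14 regions were formed by exactly 1 interval, among them those of C1ql1 and Dcakd, of Sim2 and Hlcs, and of the T cell leukaemia homeobox gene Tlx1. Joining intervals within 1000 or 3000 bp raised the number of such regions, as given in the last section. A low number of intervals was not the same as cover. The region of the cardiac myosin gene Myh6 had 1 or 2 intervals in each library but a median cover of 46.9%.

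**Figure D2:**
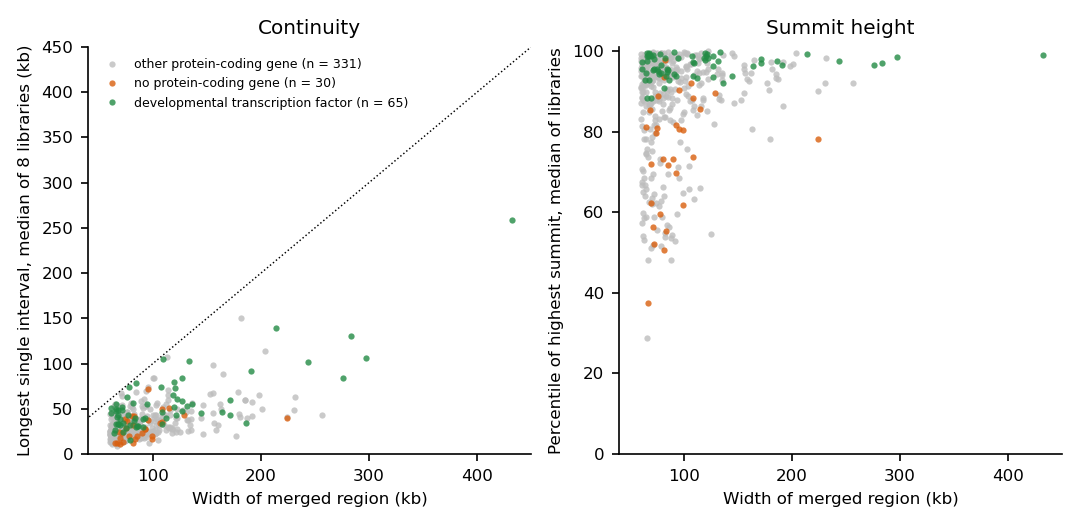
Each point is 1 of the 426 very broad regions, coloured by the genes it holds; the horizontal axes are the width of the merged region in kb, and the vertical axes are the longest single interval in kb (left, median of 8 libraries; dotted line, interval as long as the region) and the percentile of the highest summit among all summits of its library (right, median of libraries). Regions with developmental transcription factor genes of the lists used have a median width of 91.0 kb, a median longest interval of 47.6 kb and a median percentile of 97.0. Regions without a protein-coding gene have 82.7 kb, 27.75 kb and 79.0.

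Median cover over the libraries was 78.1%, with quartiles at 68.8% and 86.6%. The highest values belonged to En2, a midbrain and hindbrain homeobox gene, with Cnpy1 (98.1%; 94.5% to 100%), Pax2 (97.6%), the region of the intermediate filament gene Nes, Bcan, Hapln2, Crabp2 and Gpatch4 (97.4%; 92.7% to 98.2%), the Hoxc domain (96.8%) and the region of Ecel1 with the muscle acetylcholine receptor genes Chrnd and Chrng and Prss56 (96.5%; 91.9% to 99.7%). These regions, with the Hoxc domain replaced by that of Neurod2, were the 5 covered over at least 90% in every library. The lowest belonged to the calcium sensor gene Syt2 (29.5%), to Afap1l2 and Vwa2 (34.1%), to a region on chromosome 2 without a gene (38.6%; chr2:92726601-92793000), to the potassium channel gene Kcnk1 (39.0%) and to a region within Rbfox3 (41.4%). In the Syt2 region the cover was 87.7% and 29.6% in WT VEH, 35.2% and 58.1% in WT MET, 17.0% and 29.3% in RH VEH, and 14.2% and 27.7% in RH MET, so that WT VEH 1 stood above the other 7 libraries. At least 50% was covered in all 8 libraries for 222 of the 426 regions, and for 332 without RH VEH 1. A cover of at least 75% in all 8 was found for 55.

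All 8 libraries had an interval in 422 of the regions (99.1%), against 40.01% of all autosomal regions, a difference that width alone favours. The other 4 had intervals in 7 libraries. They were the Hoxb domain, without WT MET 2, and the regions of the ear matrix gene Tectb with Gucy2g, of Afap1l2 and Vwa2, and of Kcnk1, all without RH VEH 1. In the Tectb region the cover in the other libraries ran from 37.4% to 89.2%, and in the Kcnk1 region from 12.2% to 85.7%.

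Summits in very broad regions were high within their libraries. The highest summit of a region stood at a median percentile of 93.1, and at 90 or more in 259 regions (60.8%), against a median of 77.3 and a share of 22.5% over the 6336 autosomal regions called in all libraries. A wider region holds more summits to take the highest from, so this difference is a description. The top was held by the region of Trp73, a gene of the p53 family, with Ccdc27, Smim1 and Wrap73 (median percentile 99.9; heights of 102 and 120 in WT VEH, 147 and 131 in WT MET, 72 and 111 in RH VEH, and 131 and 111 in RH MET). It was followed by the regions of the limb and heart regulators Tbx2 and Tbx4, of Onecut3, of the Hoxa cluster and of Plekhd1. RH VEH 1 was the lowest library in each of these 5. At the other end 4 regions had a median percentile under 50, namely those of Afap1l2 and Vwa2 (28.9), the region without a gene on chromosome 2 (37.6), Kcnk1 (48.1) and the adhesion gene Dscaml1 (48.3). Their heights ran from 9 to 21 in all libraries with a summit there.

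Regions that held a developmental transcription factor gene of the lists used here differed in these descriptions from the rest. The 65 of them had a median cover of 85.4%, a median longest interval of 47.6 kb and a median summit percentile of 97.0, and 63 stood at the 90th percentile or above. For the 331 regions with other protein-coding genes the medians were 76.7%, 29.0 kb and 92.5, and for the 30 without any they were 69.7%, 27.75 kb and 79.0. The lists are not complete, and the regions of the homeobox genes Hmx1 and Otp, for example, were counted among the 331. The 65 were also wider, with a median of 91.0 kb against 79.2 and 82.7 kb, and width favours a longer interval and a higher summit. The highest summit lay at a median of 5.16 kb from the nearest RefSeq transcript start, over the 421 regions with such a table entry on their chromosome. Over all summits of a library, high or low, the medians were 15.1 to 22.9 kb. These are unlike sets of summits, and no distance was taken for the highest summits of narrower regions. Nearness to a start is thus not shown to be particular to very broad regions. The highest summit lay within 2 kb of a start in 186 regions. Its place was also shared between libraries, with a range of 1.45 kb or less over the libraries in the median region and of 5 kb or less in 271.

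**Figure D3:**
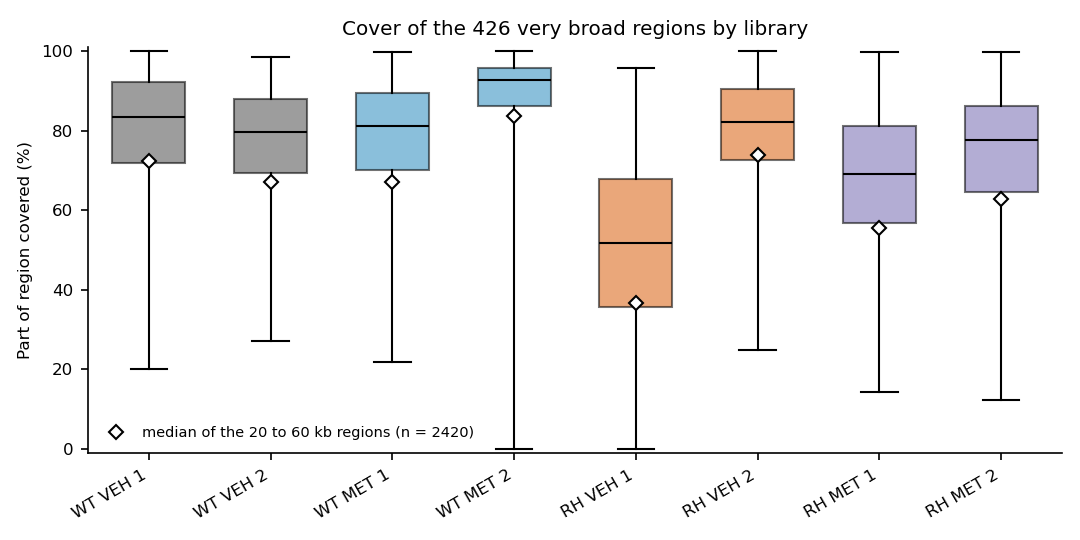
Percent of each of the 426 very broad regions covered by intervals, by library; boxes span the quartiles with the median as a line, whiskers reach the lowest and highest region, and diamonds give the median of the 2420 autosomal regions of 20 to 60 kb. RH VEH 1 has the lowest median (51.7%) and WT MET 2 the highest (92.8%), in both width classes.

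The median region was covered over 83.4% and 79.6% in WT VEH, 81.0% and 92.8% in WT MET, 51.7% and 82.1% in RH VEH, and 69.1% and 77.6% in RH MET. The RH VEH medians thus lay on both sides of those of both RH MET libraries, and of WT VEH 2 and WT MET 1. RH VEH 1 was the lowest of the 8 in 382 of the 426 regions and WT MET 2 the highest in 242. The lower cover of RH VEH 1 came with wider breaks inside the domains. Its intervals reached from end to end over a median of 83.8% of a region, against 91.4% to 97.0% in the other libraries, but filled a median of 69.4% of that reach, against 80.1% to 96.6%. The longest autosomal interval was 149.2 kb in RH VEH 1 and 411.8 kb in WT MET 2, and intervals longer than 60 kb numbered 9 and 120 on the autosomes. Summits moved with it. The highest summit was lowest in RH VEH 1 in 408 of the 422 regions with 8 heights, and highest in WT MET 2 in 297. Regions of 20 to 60 kb showed the same order at its ends, with medians of 36.6% in RH VEH 1 and 83.8% in WT MET 2. The very broad regions took 22.0% of the autosomal cover of WT MET 2 and 28.3% of that of RH VEH 1, the libraries with the highest and the lowest total.

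For the genotype, RH VEH was set against WT VEH. Cover was lower in both RH VEH than in both WT VEH libraries in 111 regions (26.1%), against a background of 13.8% of all autosomal regions and 23.6% of the 20 to 60 kb regions, and higher in 0, against 1.90% of all. The share among very broad regions is therefore close to that of the next width class. The largest differences were at Svop and Dao, the latter the gene of D-amino acid oxidase (95.3% and 59.9% in WT VEH, 29.5% and 24.8% in RH VEH; difference -50.5 percentage points), at the gel-forming mucin genes Muc5ac and Muc2 (94.6% and 85.8% against 18.7% and 63.3%; -49.2), and at Mpped1 (84.8% and 56.7% against 12.7% and 33.4%; -47.7). The groups did not overlap in these 3, nor in the regions of the next largest falls. A region without a gene on chromosome 15 (chr15:6973201-7055000; -44.5) and that of the transposase-derived gene Pgbd5 (87.5% and 85.6% against 28.8% and 59.0%; -42.7) followed. The largest differences the other way were at C2cd4b (17.3), Ptprn2 (15.2), Lpar3 (11.5), B4galnt3 (10.8) and Cntnap1 (10.2), and in each of them the RH VEH libraries lay on both sides of, or overlapped, the WT VEH values, with RH VEH 2 high.

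With limma, 0 of the 426 regions passed an adjusted p of 0.05 (Benjamini-Hochberg over the 9729 regions with an interval in at least 4 libraries; background 0.0103%), and 24 had an unadjusted p under 0.05, against 565 of the 9729. The smallest adjusted p among them was 0.677. The median difference was -11.9 percentage points over the very broad regions and -10.0 over all regions tested. It turned to 1.68 and 2.80 without RH VEH 1. Without RH VEH 2, so that RH VEH 1 stood alone for its group, it became -26.1 over the very broad regions and -24.5 over all regions tested. The sign of the median difference between these groups thus depended on RH VEH 1. With each library centred on its median over the regions tested, which takes out a shift shared by them, 212 differences were positive and 214 negative, against 30 and 396 as measured.

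Metformin was compared with vehicle in the mutant cells, the setting that the title of the series names. Cover was higher in both RH MET than in both RH VEH libraries in 42 regions (9.86%; background 11.0%) and lower in both in 2 (0.469%; background 2.85%). Neither share lay above the background. With the same number of intervals kept in each library, 19 regions were higher and 13 lower, and with a minimum summit height of 15, 96 were higher. No share over all autosomal regions was taken at these settings, so these counts cannot be set against a background. With the minimum height, the median difference was 9.22 percentage points over the very broad regions and 8.84 over all regions tested. The shift was thus not particular to the very broad regions. The largest differences were at Scube3, a secreted signalling protein gene, with Zfp523 (32.8% and 40.7% in RH VEH, 57.7% and 79.5% in RH MET; 31.9 percentage points), at a group of keratin genes, Krt75, Krt82, Krt84 and Krt90 (29.4% and 71.1% against 75.6% and 84.4%; 29.8), at Bmp8b and Oxct2b (21.2% and 59.8% against 76.5% and 62.7%; 29.1), at Dpysl5 (34.7% and 70.1% against 85.2% and 73.6%; 27.01) and at the inward rectifier gene Kcnj12 (25.6). In the first 4 the RH MET values lay above both RH VEH values. Lower in RH MET were the adhesion gene Igsf21 (31.5% and 72.7% against 35.6% and 24.4%; -22.1), the syndecan gene Sdc3 (74.3% and 91.8% against 60.2% and 62.4%; -21.8), the meiosis gene Mei1 (-19.5), D430041D05Rik (-19.4) and a region within Rbfox3 (36.7% and 89.6% against 45.9% and 48.0%; -16.2). Of these, Sdc3 alone had groups that did not overlap. The differences at Sdc3, Mei1 and Rbfox3 turned sign with a minimum summit height of 15, as given in the last section. That at Kcnj12 turned with the same number of intervals kept in each library.

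By limma 0 very broad regions passed the threshold here too (background 0.0103%), with 2 at an unadjusted p under 0.05, against 326 of all 9729 regions tested, and a smallest adjusted p of 1. The median difference of 5.08 percentage points over the very broad regions, with 318 positive and 107 negative, became -7.88 with 72 and 354 without RH VEH 1. Without RH VEH 2, so that RH VEH 1 stood alone for its group, it became 18.9, against 17.8 over all regions tested. With each library centred on its median, 257 differences were positive and 169 negative. RH VEH 1 is part of both comparisons, so the values of these comparisons are not independent, and the opposite signs of their medians are not separate results.

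**Figure D4:**
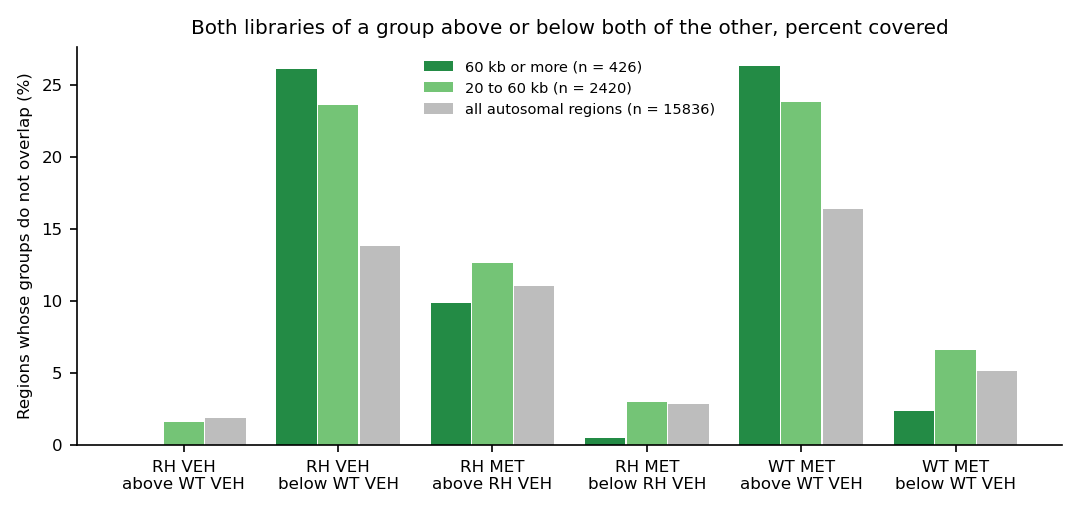
Share of regions (%) in which both libraries of a group had higher or lower cover than both of the other group, for very broad regions (426), regions of 20 to 60 kb (2420) and all autosomal regions (15836); each set of bars is 1 comparison and direction. The very broad regions have 26.1% against 23.6% of the 20 to 60 kb and 13.8% of all regions for RH VEH below WT VEH, and 26.3% against 23.8% and 16.4% for WT MET above WT VEH, while in the other 4 sets of bars their share is the lowest of the 3.

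In wild-type cells, cover was higher in both WT MET than in both WT VEH libraries in 112 regions (26.3%; background 16.4%, and 23.8% of the 20 to 60 kb regions) and lower in 10 (2.35%; background 5.13%). Widths were merged over all libraries, and WT MET 2 had the most cover of them, so regions high in it could reach the limit more easily. The largest difference was at the region without a gene on chromosome 2 (20.2% and 40.4% in WT VEH, 72.3% and 92.5% in WT MET; 52.1 percentage points), which also had some of the lowest summits of the set. It was followed by C2cd4b (27.4% and 38.8% against 60.1% and 79.3%; 36.6), Ptprn2 (31.4), the early B cell factor family gene Ebf2 (53.3% and 65.6% against 79.4% and 98.8%; 29.7) and the glycosyltransferase gene B4galnt3 (29.6). All 5 had groups that did not overlap. C2cd4b, Ptprn2 and B4galnt3 were also among the largest rises of RH VEH minus WT VEH. Both comparisons use the same WT VEH libraries, so these are not separate results. In the other direction the largest difference was the Hoxb domain (-48.4 ± 11.9, SE; limma unadjusted p = 5.0e-05, adjusted p = 0.487), which comes from the missing intervals of WT MET 2 described above. Without WT MET 1, so that WT MET 2 stood alone for its group, it reached -93.4 with an adjusted p of 0.000189 by limma (0.000189 to 1 over all settings for the smallest value among the regions), and without WT MET 2 no very broad region had an unadjusted p under 0.05. Faim2 (-41.9), again by WT MET 2, Nkx1-1 and Uvssa (93.5% and 53.1% against 43.4% and 63.0%; -20.1), the T-bet gene Tbx21 (88.4% and 81.1% against 60.4% and 75%; -17.0) and the focal adhesion kinase gene Ptk2 (-14.5) came next.

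By limma 0 very broad regions passed in wild-type cells (background 0.00%), with 2 at an unadjusted p under 0.05, against 354 of the 9729 regions tested. None passed for the interaction of genotype and treatment either (background 0.00%), with 3 at an unadjusted p under 0.05, against 248 of the 9729. The smallest adjusted p values were 0.487 and 1. The median difference of 4.69 percentage points between WT MET and WT VEH, with 318 positive and 106 negative, became -0.467 with 203 and 222 without WT MET 2. With each library centred on its median, 172 were positive and 254 negative. With the same number of intervals kept in each library, groups that did not overlap numbered 58 above and 31 below, against 112 and 10 as measured. No share over all autosomal regions was taken at that setting. For the Hoxb domain the interaction was 50.1 ± 16.9 percentage points (SE; limma adjusted p = 1).

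Summit heights were tested with limma too. On log2 heights, each library centred on its median over the 6336 regions with a summit in all 8, 0 of the 422 very broad regions tested passed in any of the 4 comparisons (background 0.00% in each). Unadjusted p values under 0.05 numbered 27, 26, 7 and 16 for RH VEH minus WT VEH, RH MET minus RH VEH, WT MET minus WT VEH and the interaction, against 454, 538, 240 and 295 of the 6336 regions, and the smallest adjusted p values were 0.490, 0.292, 0.999 and 0.994. The median differences over the very broad regions were -0.03, 0.02, 0.00 and 0.03 log2 units, against 0.02, -0.03, -0.01 and -0.02 over all regions tested. Without the centring, the median of all regions shifted by -0.46, 0.64, 0.36 and 0.28, and no very broad region passed then either.

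The 4 Hox domains and the regions of the other anchor genes looked up gave the following differences in cover. In RH VEH minus WT VEH the difference was -3.83 percentage points for the Hoxa domain, -3.04 for Hoxb, -4.14 for Hoxc and -5.43 for Hoxd, -6.92 for the heart and endoderm regulator Gata4, and -26.6 for the region of Kcnq1 and Cdkn1c, with standard errors of 5.95, 11.9, 5.66, 8.68, 8.89 and 19.4. In RH MET minus RH VEH it was 1.73, 1.72, 4.12, 6.74, 12.2 and 4.21 in the same order. None passed the threshold, and none of these differences reached 2 of its standard errors. The Gata4 region (120.0 kb, chr14:63179601-63299600) was covered over 85.0% and 85.0% in WT VEH, 86.3% and 99.2% in WT MET, 68.7% and 87.5% in RH VEH, and 90.7% and 89.8% in RH MET. Cover at Kcnq1 and Cdkn1c was 89.7% and 76.9% in WT VEH, 52.3% and 87.5% in WT MET, 43.0% and 70.4% in RH VEH, and 52.3% and 69.5% in RH MET. Both RH VEH values lay below both WT VEH values there, and the RH MET and RH VEH values overlapped.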

How the data were processed

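H3K27me3 was profiled by chromatin immunoprecipitation sequencing. Interval, summit and merged lists (mm10, per the file headers) are the authors' own, called per library. Summit height is a score that the authors deposited as whole numbers without a unit. The submitters' processing notes name bcl2fastq 2.20 and BWA 0.7.12. The interval caller is not given in the sources used here. The input library was not analysed here.

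Merging the intervals rebuilt all 18556 deposited regions. Percent covered is the part of a region inside a library's intervals. It and log2 summit height were fitted with limma 3.58.1 (R 4.3.3; trend; Benjamini-Hochberg at 0.05), with 1 model for the 4 groups, tested on simulated data. Since the labels do not call the libraries separate mice, p-values measure only the spread between libraries, which may be technical; an exact test of 2 against 2 cannot go below 0.333. Genes are RefSeq spans (GRCm38.p6) touched by at least 1 bp. Alternatives varied width, joining, height, filters, centring and libraries.

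Members, gene lists and named regions were chosen with earlier results of these data known. Named were the 10 widest regions, the 5 at each end of intervals, cover, summit percentile and each difference, those beside the limit, and anchor genes; a few others were named after their values were seen.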

Additional observations from a re-analysis of the deposited data

How the results depend on the processing

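A limit of 80 kb left 220 of the 426 regions, and leaving out 1 library left 359 to 424. Joining intervals within 1000 and 3000 bp raised the regions formed by 1 interval in at least 4 libraries from 14 to 54 and 133. Asking for 50% cover lowered those called in all 8 libraries from 422 to 222, and asking for the whole gene span lowered the genes held from 788 to 466. Leaving out 1 library gave 222 to 332 regions at least 50% covered in every library, 133 to 164 with an interval over 60 kb, and 0 to 19, 0 to 2 and 0 to 1 limma calls for RH VEH minus WT VEH, RH MET minus RH VEH and WT MET minus WT VEH. In those fits the lone library of a group is assumed to vary like the other groups. Keeping the 11620 highest intervals of each library, non-overlapping groups numbered 1 for RH VEH above WT VEH. They numbered 19 and 13 for RH MET above and below RH VEH, and 58 and 31 for WT MET above and below WT VEH. With a minimum summit height of 15 they numbered 1 for RH VEH above WT VEH and 96 for RH MET above RH VEH. Counts for the remaining directions are not listed here. No share over all autosomal regions was taken at these settings, so these counts have no background. Differences that turned sign were Kcnj12 (-3.90, equal number) and, with the minimum height, Sdc3 (55.6), Mei1 (11.9) and Rbfox3 (9.33); the cause was not tested. Leaving out a library moved RH VEH minus WT VEH from -2.48 to 37.2 at C2cd4b, -9.47 to 39.95 at Ptprn2, -12.2 to 35.2 at Lpar3, -12.6 to 34.1 at B4galnt3 and -0.329 to 20.7 at Cntnap1, RH MET minus RH VEH from -46.8 to 8.05 at D430041D05Rik and -42.7 to 10.2 at Rbfox3, and WT MET minus WT VEH from -40.3 to 0.107 at Nkx1-1. Of 449 recomputed named differences, 436 kept direction and side of the threshold, 12 reversed and 1 passed it. Same-numbered libraries did not deviate together (correlations of -0.0154 to 0.0447 over 9729 regions), so the numbers are not treated as pairs; a fit with the replicate number as a block called 0 very broad regions in each of the 8 tests, as without it. Read depth is unknown, so an absent interval sets no limit on the mark.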
